A study of Mus musculus with 6 samples.

Results

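The genes described here are 8 muscle-type genes, out of 18193 genes measured in the newborn mouse lens, and they were read through all 18 probe sets annotated to them. They fall into a set of 3, Srpk3, Sh3bgr and Tecrl, and a set of 5 muscle controls, Ckm, Acta1, Tnnt3, Mylpf and Mef2c. The members were chosen by their measured values on these arrays, the first set by the difference between genotypes and the second by the level in transgenic replicate 3. Their genotype differences and their excess in that array are therefore given as description, without a test. The study compared lenses of transgenic Balb/c mice with lenses of wild-type Balb/c mice, all 2 days old and taken whole, on 3 Affymetrix arrays for each genotype. The labels name neither the transgene nor its promoter. In the series' description 12 lenses stand behind each genotype, with no word on how replicates shared them, so the p-values rest on the spread among 6 samples, which may be technical in part. Foxe3, a transcription factor gene of the lens epithelium, ranged from 13.33 to 13.42 (log2 value) in transgenic lenses, against 8.54 to 8.86 in wild-type lenses. Of the 12 defining lens genes listed, 11 were measured as single genes, and their mean level lay between 12.47 and 12.63 on transgenic arrays and between 12.44 and 12.52 on wild-type arrays. That mean includes Foxe3, whose rise offsets lower values of other genes, so it does not show equal levels of the rest. The median difference of the 11 genes was -0.16 (log2, transgenic minus wild type). By limma (adjusted p under 0.05) 1 of them, Foxe3, was higher and 2, Bfsp1 and Prox1, were lower.

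Skeletal muscle contracts through sarcomeres, in which myosin thick filaments slide along actin thin filaments under the control of troponin. Ckm encodes the muscle creatine kinase that buffers ATP, Acta1 the skeletal actin of the thin filament, Tnnt3 the fast skeletal troponin T and Mylpf the fast regulatory light chain of myosin. Mef2c encodes a transcription factor that drives many of these genes, and it is also used outside muscle, for example in neurons and vessels. Srpk3 encodes a kinase of SR-type splicing factors that is a target of MEF2 in muscle. Sh3bgr encodes a small thioredoxin-like protein best known from heart and skeletal muscle, and Tecrl encodes a relative of the enoyl-CoA reductase of fatty acid elongation, known from the heart in humans. The lens has no muscle of its own, while muscles that move the eye, the lids and the skin lie near it.

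Promoter sequences are shown first, to describe where motifs bound by muscle regulators occur in genes of both sets. They do not show whether a gene's array values followed genotype or transgenic replicate 3. RefSeq promoter windows of build GRCm38.p6 were found for 6 of the 8 genes, and the 250 bases before the annotated start were searched on both strands. These were 8 windows, of which 3 belonged to Mef2c. Sh3bgr and Tnnt3 had no window. The windows of Srpk3 (chrX:73774155-73774404, plus strand), Tecrl (chr5:83355196-83355445, minus strand), Ckm (chr7:19410844-19411093, plus strand) and Acta1 (chr8:123894776-123895025, minus strand) are printed in the direction of transcription. Capitals mark matches to the E-box CANNTG, to the CArG box bound by serum response factor, and to the wider MEF2 consensus.
Srpk3: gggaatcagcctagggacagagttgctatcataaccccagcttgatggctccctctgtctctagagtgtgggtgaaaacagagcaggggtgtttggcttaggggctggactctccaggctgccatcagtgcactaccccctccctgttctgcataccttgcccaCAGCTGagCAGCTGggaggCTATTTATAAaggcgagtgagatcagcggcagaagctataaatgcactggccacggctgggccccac
Tecrl: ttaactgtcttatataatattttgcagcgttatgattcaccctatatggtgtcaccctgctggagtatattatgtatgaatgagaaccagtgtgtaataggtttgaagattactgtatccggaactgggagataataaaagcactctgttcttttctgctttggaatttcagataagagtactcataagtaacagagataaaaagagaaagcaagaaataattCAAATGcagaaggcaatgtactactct
Ckm: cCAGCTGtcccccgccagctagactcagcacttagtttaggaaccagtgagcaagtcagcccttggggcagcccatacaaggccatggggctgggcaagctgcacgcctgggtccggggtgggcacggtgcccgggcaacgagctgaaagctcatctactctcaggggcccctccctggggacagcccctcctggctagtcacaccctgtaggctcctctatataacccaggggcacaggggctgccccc
Acta1: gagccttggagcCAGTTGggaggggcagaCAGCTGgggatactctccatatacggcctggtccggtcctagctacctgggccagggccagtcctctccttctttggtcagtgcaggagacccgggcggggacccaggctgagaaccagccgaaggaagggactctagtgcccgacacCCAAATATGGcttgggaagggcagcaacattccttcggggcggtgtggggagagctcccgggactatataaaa
The Srpk3 window held 1 MEF2 match, CTATTTATAA, 67 to 58 bases before the start, and 2 E-boxes just before it. The MEF2 match overlapped 2 of the window's 3 TATAAA matches. A match to this wider MEF2 consensus occurred in 2.92% of 32851 promoter windows of the same length, and the form was chosen after the sequences were seen. The narrower form chosen earlier, found in 0.508% of windows, matched none of the members' windows. The Acta1 window held 1 CArG box, CCAAATATGG, 73 to 64 bases before the start (1.47% of all windows have one), together with 2 E-boxes. Tecrl, Ckm and Mylpf had 1 E-box each, a motif found in 66.2% of all windows. The forkhead core TGTTTA, present in 12.0% of all windows, was in none of the windows of the 6 genes. The TGCTGA motif of MAF factors, present in 16.1% of all windows, was in the Ckm window and in 1 of the 3 Mef2c windows. These matches describe letters in the windows and do not show that a factor binds there.

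Srpk3 was higher in transgenic lenses. Its brightest probe set (1447806_s_at) read 7.60, 7.41 and 7.90 in transgenic replicates 1, 2 and 3, against 5.72, 5.83 and 6.33 in wild-type replicates 1, 2 and 3 (log2 values). Every transgenic array lay above every wild-type array, and the gap between the groups was wider than the range within either. The means were 7.64 ± 0.25 and 5.96 ± 0.32 (SD, n = 3 each), a difference of 1.68 ± 0.18 (limma's SE), or 3.20-fold. Without transgenic replicate 3 the difference was 1.55 ± 0.18. A second probe set (1418798_s_at) read 6.22, 6.21 and 6.42 in transgenic lenses and 5.38, 5.40 and 5.45 in wild-type lenses, a difference of 0.88. The suffix of both names marks, in Affymetrix's naming, probe sets that can match several transcripts. The other 2 probe sets of Srpk3 were dim, with means of 4.68 and 3.20 against a median of 5.34 over all probe sets, and differed by 0.16 and 0.01.

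Sh3bgr was lower in transgenic lenses. Probe set 1422644_at read 6.40, 5.95 and 6.67 in transgenic lenses, against 8.86, 8.69 and 9.02 in wild-type lenses. No array overlapped with the other genotype. The means were 6.34 ± 0.37 and 8.86 ± 0.17 (SD, n = 3 each), a difference of -2.52 ± 0.18 (SE), which is 5.72-fold, and -2.68 ± 0.16 without transgenic replicate 3. In transgenic lenses the gene was highest in that replicate. Its other 2 probe sets averaged 4.27 and 4.15, near the lower quartile of all probe sets (4.18), and differed by -0.11 and -0.22.

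Tecrl, measured by 1437482_at alone, showed the widest gap of the 8 genes. It read 4.55, 4.65 and 4.56 in transgenic lenses and 7.18, 7.50 and 7.40 in wild-type lenses. The transgenic values lay within 0.11 of each other, close to the lower quartile of all probe sets, so background may limit the fold. The difference was -2.77 ± 0.10 (SE, n = 3 each), or 6.83-fold, and -2.76 ± 0.12 without transgenic replicate 3.

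The sarcomere and energy controls were high on 1 array. Ckm (1417614_at), the creatine kinase gene, read 6.26, 6.20 and 9.0 in transgenic replicates 1, 2 and 3, against 6.16, 6.40 and 6.26 in wild-type lenses. Acta1 read 6.31, 6.33 and 11.98 in transgenic lenses, against 6.61, 7.03 and 5.38 in wild-type lenses. For both genes transgenic replicates 1 and 2 lay among the wild-type arrays, and replicate 3 stood above all others, by 2.77 for Ckm and 5.66 for Acta1 over the mean of replicates 1 and 2. A second Ckm probe set (1444643_at), with a mean of 5.33, did not share this: it read 5.54, 5.34 and 5.34 in transgenic lenses and 5.23, 5.12 and 5.43 in wild-type lenses.

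Tnnt3 and Mylpf had the same high array. Tnnt3 read 4.99, 5.0 and 8.46 in transgenic lenses, against 5.16, 5.33 and 5.29 in wild-type lenses. Mylpf read 6.05, 6.12 and 10.19 in transgenic lenses, against 6.61, 7.04 and 6.52 in wild-type lenses. In both, transgenic replicates 1 and 2 lay below all wild-type arrays while replicate 3 lay far above them, so that the sign of the group difference rested on that array. It was 0.89 for Tnnt3 and 0.73 for Mylpf with all arrays, and -0.27 and -0.64 without transgenic replicate 3. For Ckm and Acta1 it was 0.88 and 1.87 with all arrays and -0.04 and -0.02 without that array.

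Mef2c followed the same array to a smaller extent. Its brightest probe set (1451506_at) read 5.90, 5.87 and 6.86 in transgenic lenses and 5.93, 5.99 and 5.75 in wild-type lenses. The difference was 0.32 ± 0.25 (SE) with all arrays and -0.01 ± 0.11 without transgenic replicate 3. All 5 Mef2c probe sets were highest in that replicate, with an excess over the mean of transgenic replicates 1 and 2 of 0.68 to 1.96. Among wild-type lenses, the brightest probe set of each of the 5 control genes was highest in replicate 2, while the other 4 Mef2c probe sets were highest in replicate 1 and the second Ckm probe set in replicate 3.

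**Figure D1:**
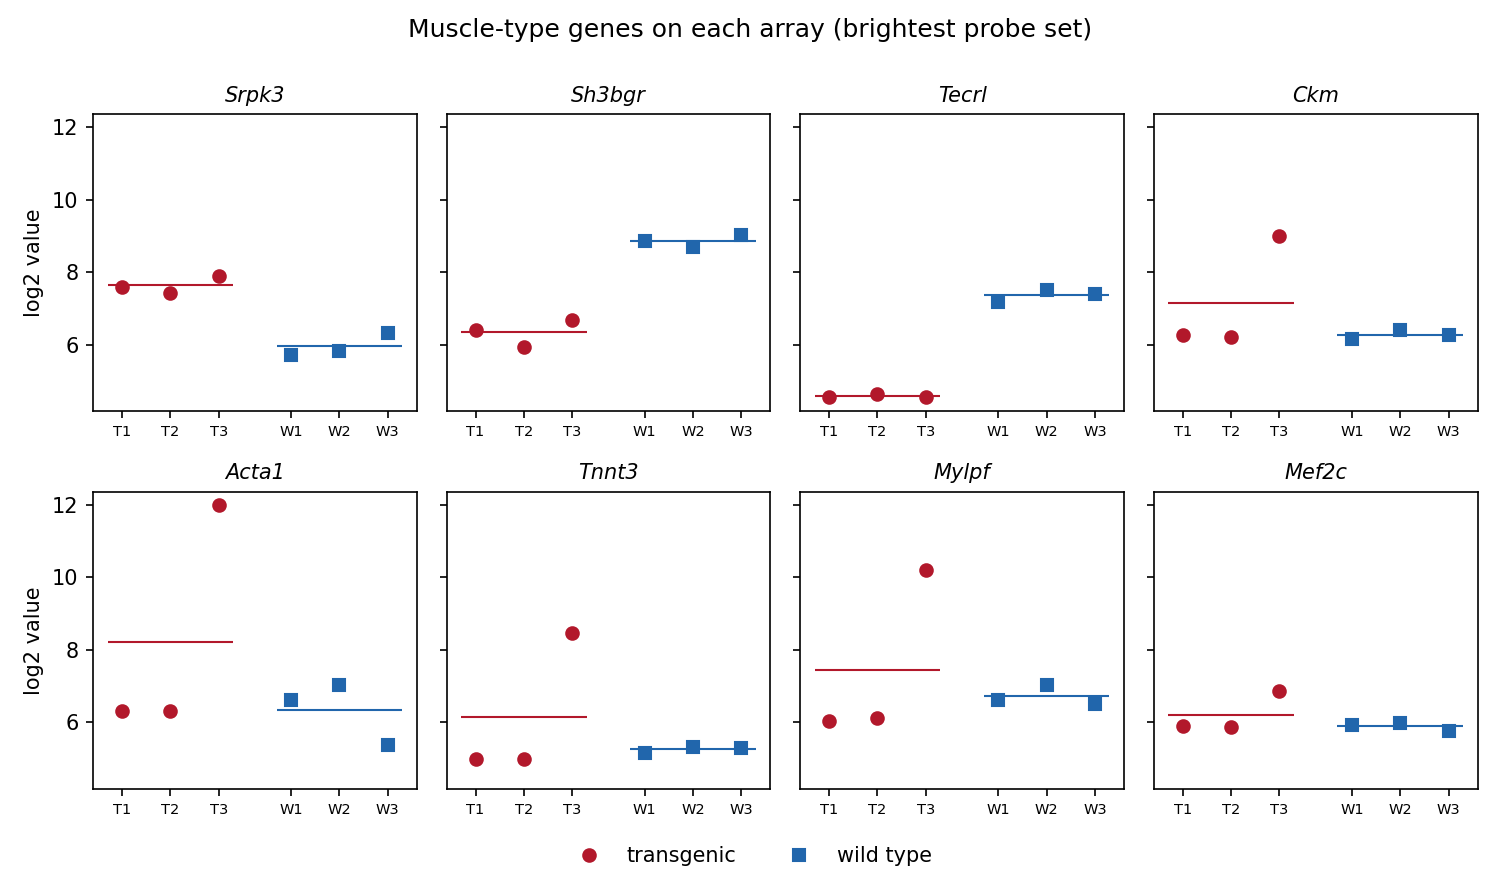
Log2 value (vertical axis) of the brightest probe set of each of the 8 genes on transgenic arrays T1 to T3 (red circles) and wild-type arrays W1 to W3 (blue squares), with group means as lines. Srpk3, Sh3bgr and Tecrl separate by genotype with no overlap, whereas Ckm, Acta1, Tnnt3, Mylpf and Mef2c are raised in T3 only.

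Read together, the 3 genes of the first set followed genotype and the 5 controls followed transgenic replicate 3. Without that replicate Mylpf also differed by -0.64, and an absolute difference of that size or larger occurred in 2.43% of all genes. For the other controls this share ran from 23.5% (Tnnt3) to 96.9% (Mef2c). The excess of that replicate over the mean of transgenic replicates 1 and 2 was -0.04 for Tecrl, 0.39 for Srpk3 and 0.50 for Sh3bgr, against 0.98 to 5.66 for the controls (log2). An excess as large as that of Sh3bgr or larger occurred in 3.56% of all genes, one as large as that of Srpk3 in 4.83%, and one as large as that of Tecrl in 56.9%. Whether muscle RNA adds to Srpk3 and Sh3bgr on that array was not tested, and their genotype differences without it were 1.55 and -2.68. As the choice of members fixed, the 3 genes are among the 4.55% of all genes called by limma (adjusted p under 0.05) with all arrays and the 3.16% called without that array, and the 5 controls are in neither share. The groups of the 3 genes did not overlap, as was also so for 28.8% of all genes. Nothing is read from these counts. Over the 6 arrays, Sh3bgr and Tecrl had a Pearson correlation of 0.98 and Srpk3 and Tecrl one of -0.96, while the 5 controls correlated with each other at 0.968 to 0.999. These values describe 6 arrays of 2 genotypes, in which genotype or transgenic replicate 3 sets most of the variance.

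**Figure D2:**
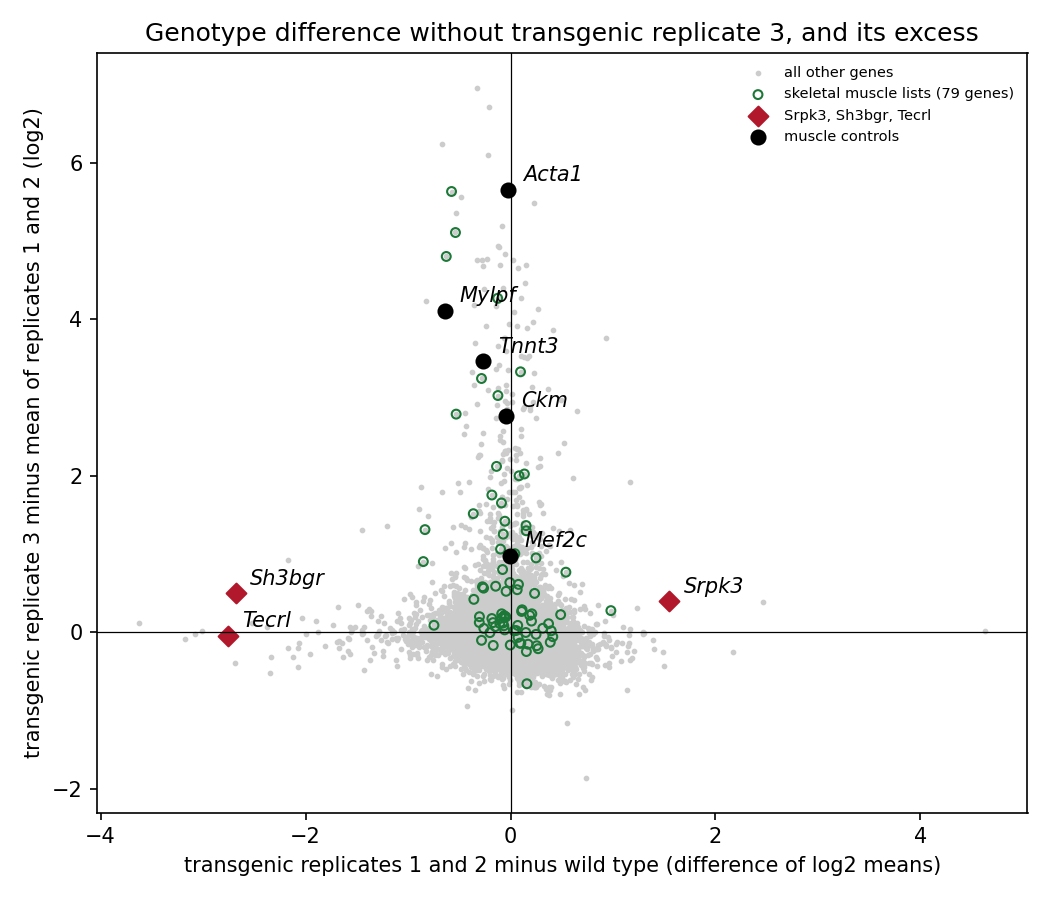
Each point is a gene: the horizontal axis is the mean of transgenic replicates 1 and 2 minus the wild-type mean, and the vertical axis is transgenic replicate 3 minus the mean of replicates 1 and 2 (both log2, and both use replicates 1 and 2). Srpk3 (1.55), Sh3bgr (-2.68) and Tecrl (-2.76) lie far out along the horizontal axis. The controls lie along the vertical axis up to 5.66, with Mylpf off it at -0.64 on the horizontal axis. Most of the 79 skeletal muscle genes (green circles) lie near the centre or on the vertical axis.

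A wider panel of muscle genes was read on the same array. Of 80 skeletal muscle genes listed besides the members, 79 were measured, and 19 of them (24.1%) stood at least 1 log2 unit higher in transgenic replicate 3 than in both other transgenic replicates. Among all genes 276 did so (1.52%). By the same count each of the other 5 arrays had 0 to 5 genes above the other replicates of its group, and no skeletal gene. A gene can pass on only 1 array of a group, so genes high in transgenic replicate 3 could not pass in the other transgenic replicates. The count also misses genes high on more than 1 array. Tnnc2 read 5.56, 5.57 and 4.46 in wild-type lenses, and the connective tissue gene Dcn read 5.76, 8.22 and 10.75 in transgenic lenses. With 1 array concerned there is no test of this excess. Thick filament genes included 6 of 17 with such an excess and thin filament and Z-disc genes 8 of 20, against 3 of 15 genes of calcium handling, 1 of 12 of energy metabolism and 1 of 15 myogenic regulators and junction genes.

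Within the muscle lists, the genes with the largest excess encode mostly sarcomere proteins, while the keratin gene Krt1, at 6.25, and the epidermal gene Krtdap, at 6.1, had larger ones. Tnnc2, the fast troponin C gene, read 4.77, 4.46 and 10.25 in transgenic lenses and 5.56, 5.57 and 4.46 in wild-type lenses. Myl1, an alkali light chain gene of fast myosin, had an excess of 5.11, Myh8, the perinatal myosin heavy chain gene, one of 4.80, Actc1, the cardiac actin gene that fetal skeletal muscle also uses, one of 4.27, the titin gene Ttn one of 3.33 and the fast troponin I gene Tnni2 one of 3.24. These are values of the brightest probe set, picked over all 6 arrays including the high one. Of the other Ttn probe sets, 1427445_a_at had an excess of 3.01 and the rest -0.08 to 0.06. The other Tnni2 probe sets had 1.95 and 0.25. Outside the rule for named genes, and chosen after their values were seen, the embryonic myosin gene Myh3 had an excess of 2.79. The slow troponin genes Tnni1, Tnnt1 and Tnnc1 had 0.90, 0.59 and 0.56, and the adult fast myosin genes Myh1, Myh2 and Myh4 had 0.17, 0.07 and -0.10. The group means of these adult myosin genes were 3.73 to 4.50, near the lower quartile of all probe sets (4.18). Background may therefore hide an excess in them. Among calcium handling genes Srl, which encodes sarcalumenin, had 2.02, the calcium pump gene Atp2a1 1.65 and the calsequestrin gene Casq2 1.51. Cav3, the muscle caveolin gene, had 1.36 and the myogenic factor gene Myog 1.00. Heart genes gave 1 of 11 with an excess of at least 1 over both other transgenic replicates, Csrp3, which skeletal muscle also expresses, and smooth muscle genes gave 0 of 10. These counts use the brightest probe set, and that of the heart list gene Tnnt2 had an excess of 0.15. The dimmer Tnnt2 probe sets 1424967_x_at and 1418726_a_at had 1.21 and 1.22.

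Skin and connective tissue genes were high on the same array, and their part in the muscle values was not tested. All 11 measured skin genes passed the same excess of 1, with a median excess of 3.92, and 6 of 9 connective tissue genes did, with a median of 3.76. The mean level of the skin list ran from 5.95 to 9.999 on transgenic arrays and from 6.12 to 6.54 on wild-type arrays. The joined skeletal list ran from 5.50 to 6.30 on transgenic arrays and from 5.50 to 5.60 on wild-type arrays. Nearest profiles were sought by centred values over the 6 arrays, among non-member genes whose higher group mean reached the median of all probe sets (5.34). For the mean profile of Ckm, Acta1, Tnnt3 and Mylpf the 4 nearest were Krt25, a keratin gene of hair follicles, Col1a1, a collagen gene, Krt5, a keratin gene of basal epidermis, and Lgals7, a galectin gene of stratified epithelia. Their root mean square differences were 0.15 to 0.21. Krt25 reached that median only through transgenic replicate 3, at 8.67 against 4.56 and 4.30 in replicates 1 and 2. The list stops at 4 genes, and the controls were chosen by that array, so it does not set muscle genes apart from others. The excess of Actc1, at 4.27, was close to the 4.24 of Krt25. In whole-tissue RNA, more cells of a type and more RNA per cell cannot be told apart.

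**Figure D3:**
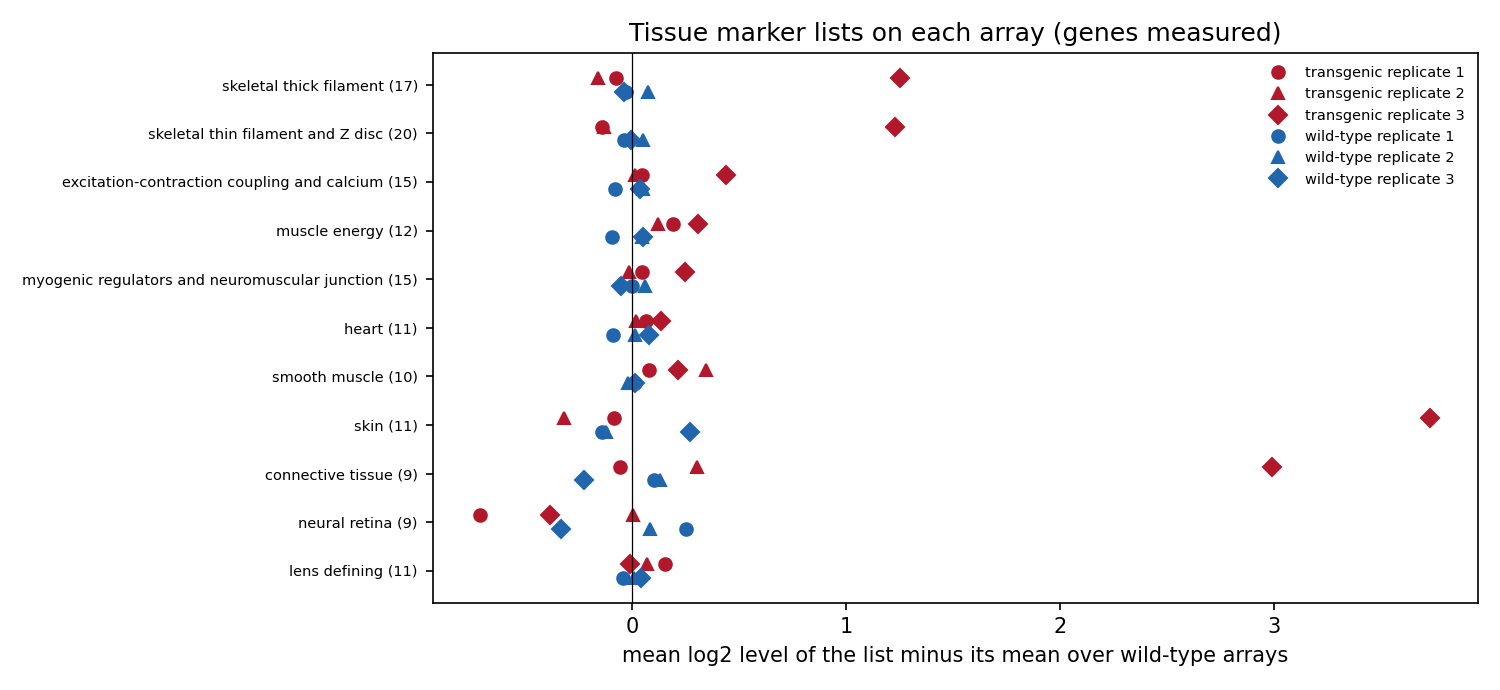
Mean log2 level of each marker list on each array, minus its mean over the 3 wild-type arrays (horizontal axis); red symbols are transgenic and blue symbols wild-type arrays, with the number of genes measured in brackets. Transgenic replicate 3 stands apart most in skin, connective tissue and sarcomere lists. It is also the highest array, by less, in the other skeletal muscle lists and the heart list. For calcium handling its mean level is 6.08, against 5.69 or below on the other arrays. It lies among the other arrays for the mean of the 11 lens genes, which includes Foxe3.

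The profiles nearest to Srpk3, Sh3bgr and Tecrl came from other genes that differed by genotype. This follows from the method, since Srpk3, Sh3bgr and Tecrl were chosen by their genotype difference and nearness was measured on the same arrays. The nearest genes are therefore listed as description, and nothing is read from their differing by genotype. Over the 6 arrays, Srpk3 lay nearest to Tnfrsf23, a decoy death receptor gene (root mean square difference 0.24), followed by Dusp15, Arfgef3 and Wls. Sh3bgr lay nearest to Lrrtm2, a synaptic adhesion gene (0.20), then to the vesicle fusion gene Stx11, the growth arrest gene Gadd45b and the heme oxygenase gene Hmox1. Tecrl lay nearest to the ubiquitin ligase gene Rnf180 (0.16), then to Lrrtm2, the calcium-binding protein gene Cabp5 and Stx11. Sh3bgr and Tecrl thus shared Lrrtm2 and Stx11 among their 4 nearest genes.

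The relatives of the members differed by less. The kinase genes Srpk1 and Srpk2 differed by 0.15 ± 0.09 and 0.24 ± 0.14 (SE) between transgenic and wild-type lenses, and none of 14 measured kinase and SR protein genes passed (limma, adjusted over all genes), with 2 of them at an unadjusted p under 0.05. Sh3bgrl, Sh3bgrl2 and Sh3bgrl3, which encode the small proteins related to SH3BGR, differed by 0.49 ± 0.22, 0.18 ± 0.11 and 0.09 ± 0.10, and none of the 3 passed or had an unadjusted p under 0.05 (limma). Tecr, the reductase gene of the elongation cycle, read 12.20 to 12.29 in transgenic lenses and 12.21 to 12.35 in wild-type lenses, a difference of -0.04 ± 0.08. Of 13 genes of very-long-chain fatty acid elongation, 1 passed: Elovl6 rose by 0.62 ± 0.12 (limma adjusted p = 0.0350). The Elovl6 call was lost with any 1 array left out (adjusted p from 0.0595 to 0.113). Elovl1, Elovl4 and Elovl7, named after their values were seen, stood at least 1 above both other transgenic replicates in replicate 3.

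Among relatives of Ckm, the brain-type creatine kinase gene Ckb differed by -0.22 ± 0.16 and the mitochondrial gene Ckmt1 by 0.02 ± 0.22, without passing. Ckmt2, the mitochondrial form of muscle, rose by 0.56 ± 0.10 (limma adjusted p = 0.0267), with a mean of 5.49 on transgenic arrays and 4.92 on wild-type arrays, around the median of all probe sets. Gamt, which encodes the enzyme that makes creatine, fell by 0.50 ± 0.09 (limma adjusted p = 0.0254). Among the MEF2 factors, Mef2a rose by 0.42 ± 0.09 (limma adjusted p = 0.0391), while Mef2b, at 0.20, and Mef2d, at 0.19, did not pass. Each of these 3 calls was weak: with 1 array left out, Mef2a never passed (adjusted p up to 0.136), and Ckmt2 and Gamt passed in 1 of 6 fits each (up to 0.0945 and 0.102).

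**Figure D4:**
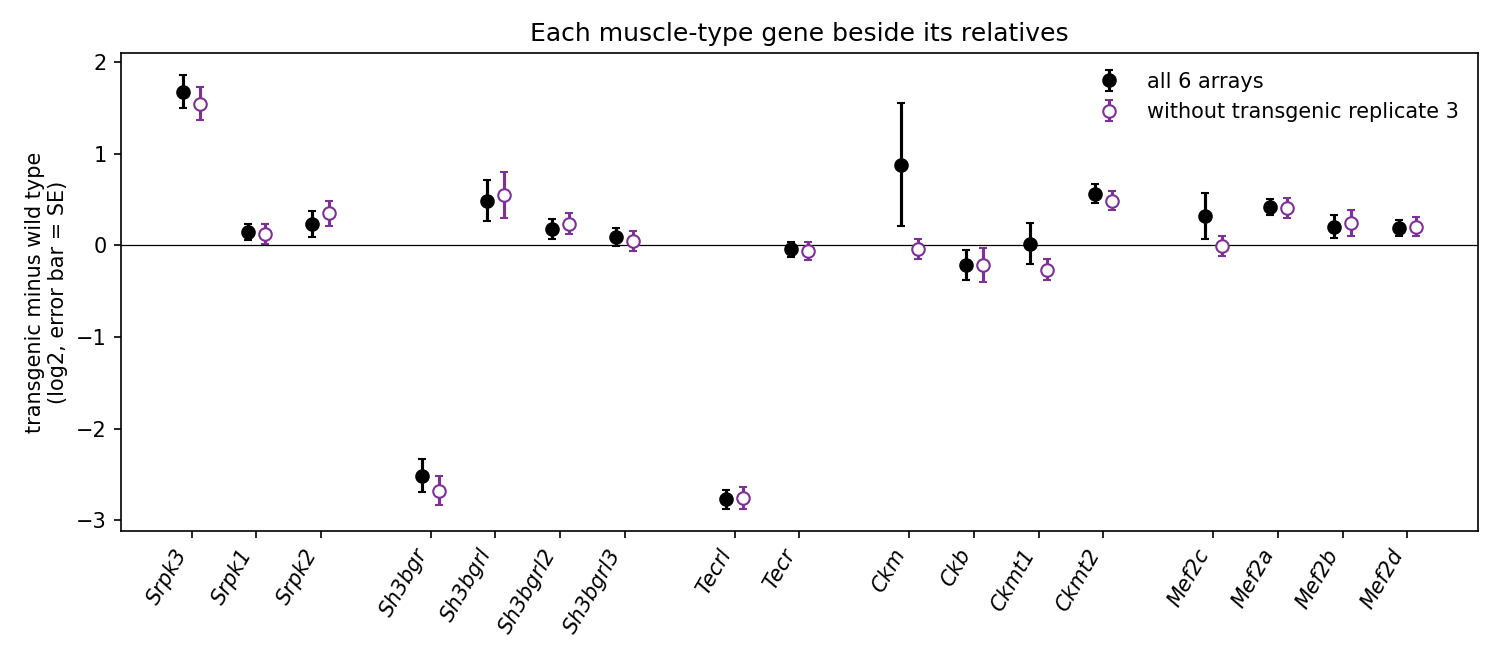
Difference between transgenic and wild-type lenses (log2, transgenic minus wild type, with SE) for each gene beside its relatives, with all 6 arrays (filled) and without transgenic replicate 3 (open). Srpk3, Sh3bgr and Tecrl keep their differences without the array, Ckm and Mef2c fall to -0.04 and -0.01, and the relatives lie within 0.6 of 0.

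Several other muscle-type genes were bright on all 6 arrays. By the fixed rule, the 4 brightest of the 79 skeletal genes in wild-type lenses were Pgam2, the muscle phosphoglycerate mutase gene, Eno3, the muscle enolase gene, Chrng, which encodes the fetal subunit of the muscle acetylcholine receptor, and Pygm, the muscle glycogen phosphorylase gene. Pgam2 read 12.34, 12.17 and 12.09 in transgenic lenses and 12.08, 12.26 and 12.43 in wild-type lenses. Eno3 averaged 11.13 in transgenic and 10.80 in wild-type lenses and Pygm averaged 10.25 in transgenic and 9.90 in wild-type lenses, and neither passed the test. None of these 4 genes had an excess over 0.09 in transgenic replicate 3. Of 34 skeletal genes with a wild-type mean at or above the median of all probe sets, 4 had the excess of 1, against 15 of 45 genes below it.

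Few of the 79 skeletal genes passed the comparison of genotypes: 2 were higher and 1 was lower in transgenic lenses (1.93% and 2.61% of all genes), with a median difference of 0.20 against 0.01 over all genes. Without transgenic replicate 3 the counts were 1 and 1 (1.37% and 1.79% of all genes) and the median was -0.05. Fabp3, the fatty acid-binding protein gene of heart and muscle, rose most steadily. It read 7.66, 7.40 and 7.80 in transgenic lenses and 6.52, 6.58 and 6.54 in wild-type lenses, a difference of 1.07 ± 0.11 (SE; limma adjusted p = 0.00298). It passed with any 1 array left out (adjusted p up to 0.0230). A dimmer Fabp3 probe set, with a mean of 5.97, differed by 0.02. The other riser was Ckmt2. The gene that fell was Chrng, which read 9.53, 9.46 and 9.58 in transgenic lenses and 9.89, 10.45 and 10.38 in wild-type lenses, a difference of -0.72 ± 0.15 (SE; limma adjusted p = 0.0389). The groups did not overlap, and a second Chrng probe set (1452520_a_at) differed by -1.07, but the call held in 1 of the 6 fits with an array left out, that without wild-type replicate 1 (adjusted p up to 0.131). Another, dim probe set differed by -0.07.

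Tnni1 passed once transgenic replicate 3 was left out, and in none of the other 5 such fits. Tnni1, the slow troponin I gene, read 7.10 and 7.18 in transgenic replicates 1 and 2 and 8.04 in replicate 3, against 7.86, 8.0 and 8.10 in wild-type lenses. With all arrays it differed by -0.55 ± 0.23 (SE; limma adjusted p = 0.219). Without transgenic replicate 3 it fell by 0.85 ± 0.11 (SE; limma adjusted p = 0.00708). Tnni1 was singled out after its values were seen, and it was the skeletal list gene called lower in that fit. The Z-disc gene Actn2, also singled out afterwards, read 6.87 and 6.32 in transgenic replicates 1 and 2 and 7.91 in replicate 3, against 7.02, 7.64 and 7.63 in wild-type lenses, and passed in neither fit (limma adjusted p = 0.566 and 0.0881).

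**Figure D5:**
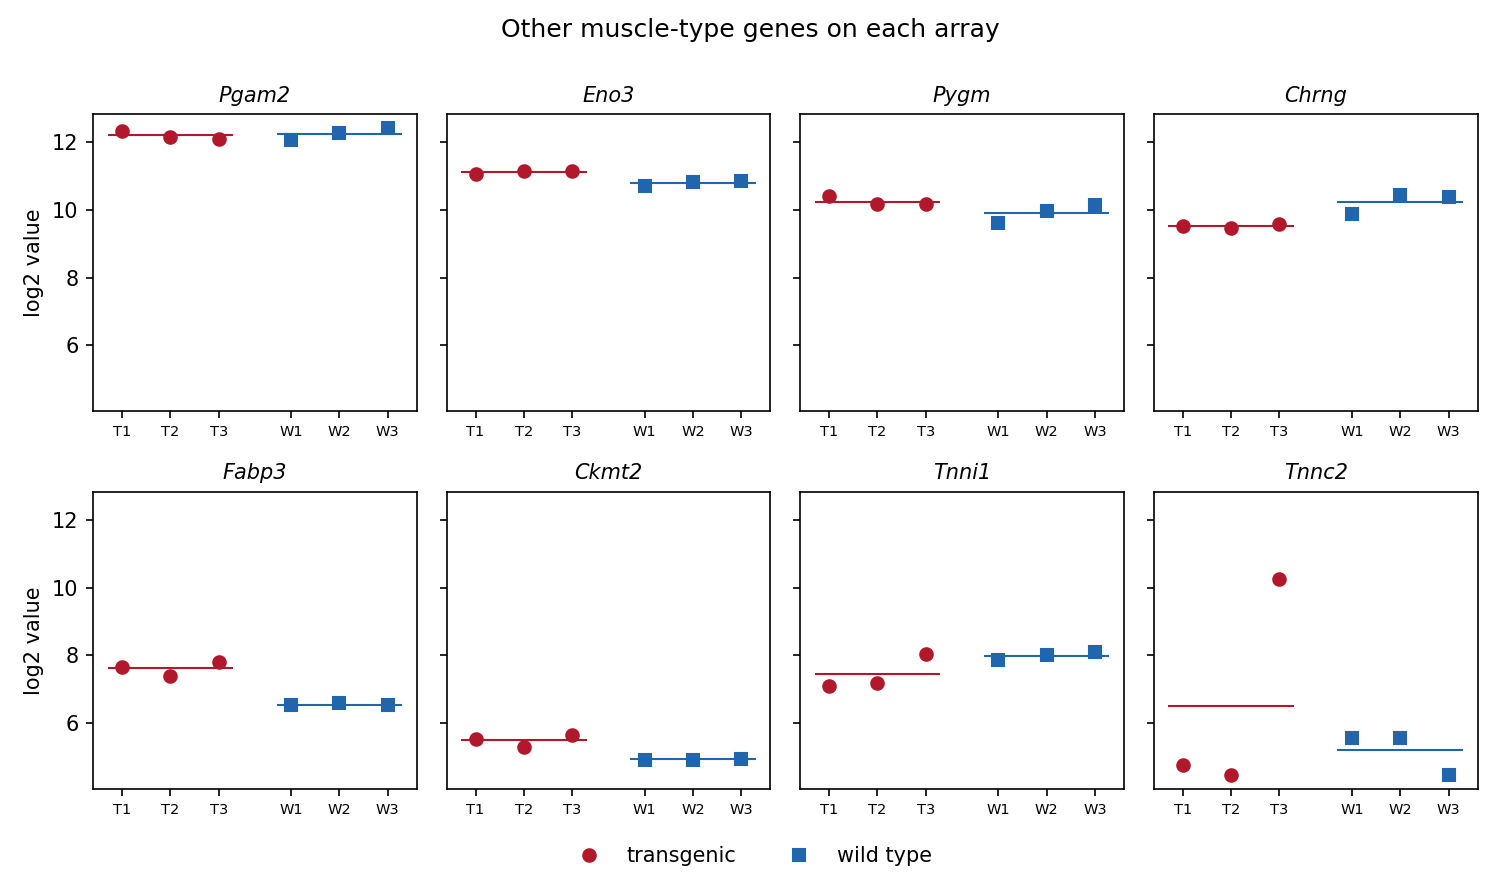
Log2 value of 8 further muscle-type genes on transgenic arrays T1 to T3 (red circles) and wild-type arrays W1 to W3 (blue squares), with group means as lines. T3 exceeds the mean of T1 and T2 by at most 0.28 for Pgam2, Eno3, Pygm, Chrng, Fabp3 and Ckmt2, Tnnc2 is at 10.25 in T3 and 5.57 or below elsewhere, and Tnni1 is at 7.10 and 7.18 in T1 and T2 but at 8.04 in T3.

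Genes of smooth muscle, heart and chaperones were read in the same comparison, in which 4.55% of all genes passed. Nothing is read from the counts in lists this small. Of 10 smooth muscle genes Acta2, the smooth muscle actin gene, was the only one to pass and rose by 0.97 ± 0.15 (SE; limma adjusted p = 0.0148). Its dimmer probe sets 1456658_at and 1444105_at differed by 0.44 and 0.10. Of 11 heart genes none passed, with 2 at an unadjusted p under 0.05. Among 8 small heat shock protein and cochaperone genes shared by muscle and lens, Hspb7, the cardiovascular member, rose by 0.64 ± 0.11 (limma adjusted p = 0.0201) and Hspb1 fell by 1.86 (limma adjusted p = 0.0109). Hspb7 averaged 5.05 on transgenic arrays and 4.41 on wild-type arrays, both under the median of all probe sets, and 2 dimmer probe sets did not share its rise. With 1 array left out, Acta2 and Hspb7 kept their calls in 3 of 6 fits each and Hspb1 in 4 of 6 (adjusted p up to 0.0833).

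The neighbours of the 3 genotype-following genes were also examined. In the RefSeq annotation of GRCm38.p6, the 2 nearest measured genes on each side of Srpk3, on the X chromosome, are Bcap31, Plxnb3, Idh3g and Ssr4. Of these Plxnb3, a semaphorin receptor gene next to Srpk3, rose by 0.43 ± 0.08 (SE; limma adjusted p = 0.0300), at 6.19 to 6.26 in transgenic lenses and 5.72 to 5.87 in wild-type lenses. Its call was lost with any 1 array left out (adjusted p from 0.0558 to 0.114). Bcap31, Idh3g and Ssr4 differed by -0.06, -0.17 and -0.09 without passing. The neighbours of Sh3bgr (Get1, Lca5l, B3galt5 and Igsf5) differed by -0.07 to 0.10, and those of Tecrl (Adgrl3, 1700031L13Rik, Epha5 and Cenpc1) by -0.51 to -0.01. None of these 8 genes passed in limma, and 1, Epha5 next to Tecrl, had an unadjusted p under 0.05. Epha5 differed by -0.51 ± 0.14 (SE; limma adjusted p = 0.0940), and by -0.34 without transgenic replicate 3. Its other probe sets differed by -0.78, -0.40 and -0.30. A dimmer Plxnb3 probe set differed by 0.30.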

How the data were processed

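Values in the deposited series table are log2, a scale read from their range since no source used here states how the authors summarised or normalised the arrays. Array medians were 5.29 to 5.37. RNA came from a GenElute extraction, per the labels. After 64 control probe sets were set aside, upper quartiles still differed by 0.120, above a limit of 0.1, so the arrays were quantile normalised (limma 3.58.1, R 4.3.3). Gene names are those of the platform annotation, updated through RefSeq (GRCm38.p6). Each gene was represented by its brightest probe set, and the members by all of theirs. Genotypes were compared with limma (lmFit, eBayes) over 18193 genes, with Benjamini-Hochberg adjustment and a threshold of 0.05. The script was tested on simulated data.

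The members and gene lists were chosen with earlier results of these data known. Named genes follow a rule: all members, up to 3 called genes per list and direction, the 3 largest excesses in transgenic replicate 3 per muscle list, the 4 brightest skeletal genes, relatives, nearest profiles and neighbours. Others are marked. Replicate numbers were not taken as pairs of samples, though pairing was not excluded. Alternatives covered scaling, dim genes, the choice of probe set, the variance model, a replicate block and each array left out. The number of arrays limits the precision.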

Additional observations from a re-analysis of the deposited data

How the results depend on the processing

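With 1 array left out, 70 to 249 genes were higher and 156 to 385 lower in transgenic lenses, against 352 and 475 with all arrays. The lowest counts were 70 and 156 without wild-type replicate 2, and the lower-gene count was also 156 without wild-type replicate 3. Testing every probe set on its own gave 661 higher and 995 lower probe sets. Replicate numbers were shared by both genotypes, and the replicate block gave 69 higher and 154 lower genes. Same-numbered arrays deviated from their group means with correlations of -0.05, 0.08 and 0.03, so the numbers were not taken as pairs. Of the 79 skeletal genes, 2 were higher and 1 lower. The higher count was 4 with trended robust variances and 1 with the replicate block, and 1 to 2 with an array left out. The lower count was 2 for probe sets tested on their own, 0 with the replicate block, and 0 to 1 with an array left out. The excess of at least 1 in transgenic replicate 3 was seen for 276 genes and 19 skeletal genes. It was seen for 170 and 12 with dim genes left out, and at 2 log2 units or more for 121 and 8. The differences of Srpk3, Sh3bgr and Tecrl kept their sign in all settings run. Averaging all probe sets of a gene gave 0.68 for Srpk3 and -0.95 for Sh3bgr, since their dim probe sets hardly differed.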
